A study of Mus musculus with 8 samples.

Results

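The genes described here are 45 targets and companions of the amino acid stress response, 12 of them cytosolic aminoacyl-tRNA synthetases. They were chosen as a list of gene symbols with no measured value in the rule, and each was read from its brightest probe. All 45 were on the array, with 73 probes, among 27573 features in all. A feature was tested where both arrays of some comparison put its probe well above background for 1 and the same RNA, which held for 19979 features and for 44 of the 45 genes. Vldlr, a lipoprotein receptor gene, was the exception. The brightest probes of 39 genes were well above background in both RNAs on all 8 arrays.

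The RNAs came from mouse bone marrow pro/preB cells that lack Pax5 (Pax5-/-), a factor needed for B lineage commitment, grown with IL-7 on irradiated OP9 stromal feeder cells. Clone 4, a single clone, was transduced with rtTA, a transactivator, and with huPax5, the human gene behind a doxycycline-responsive promoter. Its cells received 10, 300 or 1000 ng/ml doxycycline. Pax5sz2 cells have rtTA but no huPax5, and their label gives doxycycline treatment and no dose. All 4 RNAs were hybridised, each on its own, against RNA of clone 4 without doxycycline (0 ng/ml, huPax5 present) on 2 arrays with the dyes swapped. The doses ask how expression goes with the amount of inducer, and Pax5sz2 serves as a treated line with no huPax5. Clone 4 and Pax5sz2 are different cells, so in that comparison cell identity, transgene and doxycycline cannot be told apart. A comparison rests on 1 RNA on 2 technical arrays, so it has no p-value of its own and every ± below is the SD of those 2 arrays.

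When an amino acid is scarce, uncharged tRNA activates the kinase GCN2, which phosphorylates the initiation factor eIF2 alpha. General translation falls while the transcription factor ATF4 is translated more. ATF4 then binds composite C/EBP-ATF elements in genes that make, import and charge amino acids, so mRNAs of biosynthetic enzymes, transporters and tRNA synthetases tend to move together. Endoplasmic reticulum stress, haem shortage and viral RNA feed into the same step through other eIF2 alpha kinases, and in dividing lymphoid precursors the same genes supply growth.

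Promoter sequence was available for 38 of the 45 genes, as RefSeq windows (build GRCm38.p6) from 250 bases before to 50 after an annotated start. The letters TGATGNAA, the core of the C/EBP-ATF composite element, were searched on both strands. They occurred in 16 of the 38 genes (42.1%), against 1219 of 27025 genes with a window (4.51%). Counted over windows, the shares were 16 of 45 (35.6%) and 1304 of 32851 (3.97%). Among members of the list with a window, the motif was found in 5 of 8 synthetases, 4 of 9 regulators, 4 of 7 other amino acid enzymes, 2 of 5 transporters and 0 of 6 serine and one-carbon enzymes. None of the 5 other cytosolic synthetases or of the 14 mitochondrial synthetases with a window held it. Some of these genes became known as stress targets through such elements, so the share is partly built into the list. A match describes letters only. The following stretches show the motif in capitals beside the 4 genes that hold it and that differed at least 2-fold in some comparison, and in 2 synthetases. Positions are counted from the annotated start as 0, on the strand of the gene.

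Asns: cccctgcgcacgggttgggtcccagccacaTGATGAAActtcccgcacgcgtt
Atf3: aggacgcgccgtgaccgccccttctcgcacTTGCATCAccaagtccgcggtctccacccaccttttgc
Trib3: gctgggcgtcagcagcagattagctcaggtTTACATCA
Slc1a4: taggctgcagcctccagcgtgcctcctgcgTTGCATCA
Aars: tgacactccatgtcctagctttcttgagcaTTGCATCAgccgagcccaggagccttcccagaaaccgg
Tars: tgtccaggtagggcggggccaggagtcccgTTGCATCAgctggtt

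The Asns stretch is chr6:7693210-7693262 on the minus strand, with the motif at -23 to -16 in the forward orientation. In the other 5 the motif is in the reverse orientation. The Atf3 stretch is chr1:191183406-191183473 on the minus strand, with the motif at -110 to -103. That of Trib3, chr2:152344039-152344076 on the minus strand, holds it downstream of the start, at 14 to 21. In Slc1a4, chr11:20332710-20332747 on the minus strand, it spans the start, from -4 to 3. In Aars, chr8:111033700-111033767 on the plus strand, it lies at -112 to -105, and a second Aars match lies at 9 to 16. In Tars, chr15:11399659-11399703 on the minus strand, it lies at -15 to -8.

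**Figure D1:**
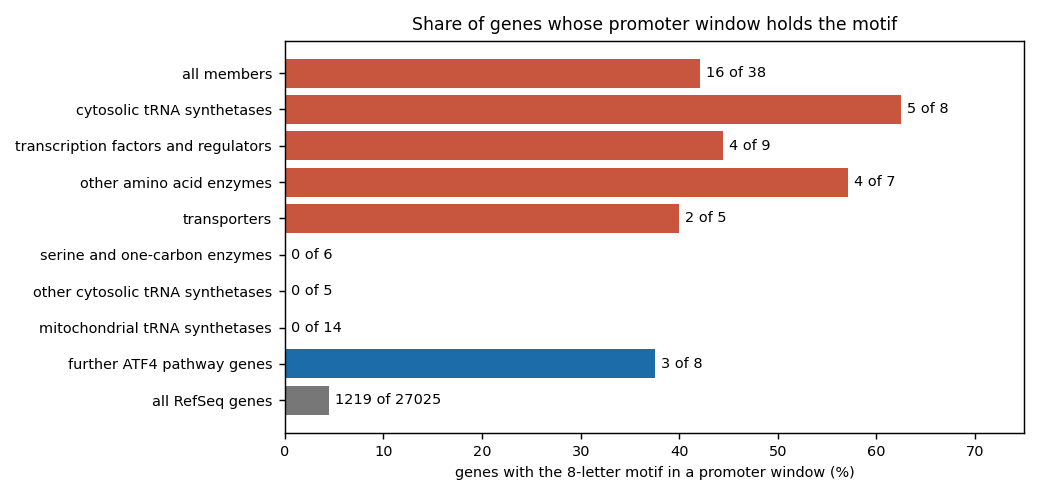
Share of genes with the 8-letter motif in a promoter window, in percent, for the list and its role groups (red), comparison lists (blue) and all RefSeq genes (grey), with counts beside the bars. The list stands at 42.1% and all genes at 4.51%, and 3 of the lists drawn have no gene with the motif.

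The arrays of 2 pairs stood apart from the rest. For the 1000 ng/ml pair the labelled direction of the ratio was in doubt and was not tested, and channel levels are given below. The scanner files mark its slides as rehybridised, and they were scanned earlier and with an older protocol than the other 6, so for this pair the dose and the batch cannot be told apart. Its ratios were negatively correlated with the 300 ng/ml ratios over all probes. Between arrays that have the named RNA in Cy5, r was -0.36, and between those that have it in Cy3, r was -0.46 (probes are not replicates). Values and counts of this pair are given in the labelled direction, since no label gives another. Each would change sides with the sign turned. At 300 ng/ml, 1358 features (6.86%) differed by more than log2 1 between the 2 arrays, 1340 of them lower on the array with the named RNA in Cy5, against 70, 76 and 25 features in the other comparisons. The 6 genes of the list among them were Asns, Ddit4, Gars, Mthfd1l, Nars and Slc6a9, and Psat1 and Tars had a usable spot on 1 array only.

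The genes of the list leaned above clone 4 without doxycycline at 300 ng/ml and, as labelled, below it at 1000 ng/ml. Their median log2 ratios at 10, 300 and 1000 ng/ml were 0.19, 0.51 and -0.83, and the median in Pax5sz2 was 0.01. The medians of all tested features were 0.01, 0.00, 0.00 and 0.03. At 1000 ng/ml as labelled, 41 of 44 genes were below 0 on both arrays, which for all features held for 6103 of 19979. At 300 ng/ml, 29 of 44 were above 0 on both arrays, against 7122 of all features. At 10 ng/ml, 26 were above 0 and 8 below 0 on both arrays, against 7699 and 7188 of all features. In Pax5sz2, 20 were above 0 and 17 below 0 on both arrays, against 8372 and 7036 of all features. The 4 comparisons share the control RNA's source, so they are not independent of each other.

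A ratio was called past the size when it was at least 2-fold (log2 of 1 or more) in the same direction on both arrays. At 10 ng/ml 1 gene of the list was higher (0.606% of all features) and 0 lower (1.27%). At 300 ng/ml 6 were higher (1.31% of all features) and 0 lower (2.37%). At 1000 ng/ml as labelled 0 were higher (1.94%) and 11 lower (0.636%), and with the sign turned 11 would be higher and 0 lower. In Pax5sz2 2 were higher (2.34%) and 0 lower (2.83%). In total 13 of 44 genes passed the size in at least 1 comparison, against 9.17% of all features, and 0 of the 12 synthetases did. Counted with Agilent's processed signals, 10 genes were higher at 300 ng/ml and 15 lower at 1000 ng/ml, against shares of all features of 3.89% and 1.20%. With median centring, the counts were 4 higher and 6 lower, against 0.481% and 0.230%. On the 300 ng/ml array with the named RNA in Cy3 alone, 9 genes were at least 2-fold higher (2.21% of all features) and 0 lower (3.26%). On the array with it in Cy5 alone, 8 were higher (2.32%) and 3 lower (9%).

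Scaling also moved the balance of all features past the size. Loess gave 121 higher and 254 lower at 10 ng/ml, 261 and 473 at 300 ng/ml, and 467 and 565 in Pax5sz2. Median centring gave 74 and 74, 96 and 382, and 479 and 203 in the same order of comparisons. For Pax5sz2 median centring also placed the median of all features at 0.15, so ratios near 0 in that comparison have no settled sign.

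**Figure D2:**
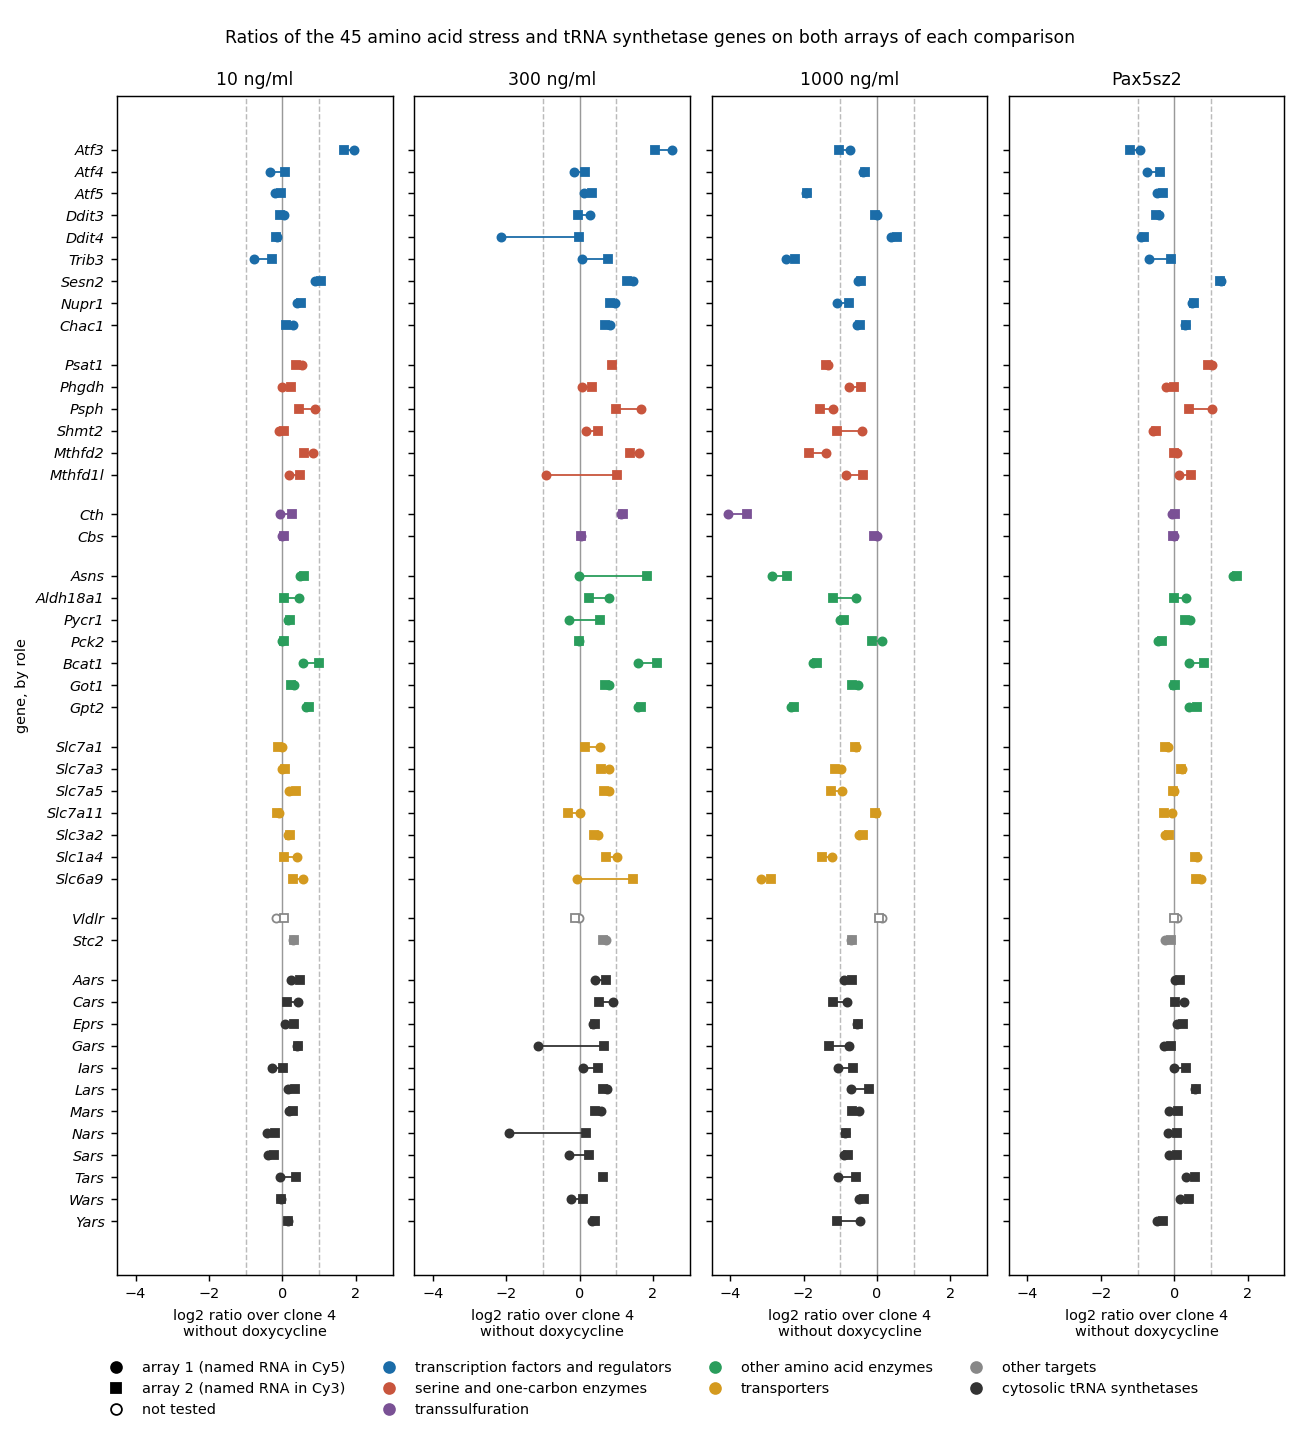
Log2 ratio over clone 4 without doxycycline of each of the 45 genes, grouped and coloured by role, on array 1 (circles, named RNA in Cy5) and array 2 (squares, named RNA in Cy3) of each comparison; dashed lines mark 2-fold. At 1000 ng/ml as labelled 41 of 44 tested genes lie left of 0 on both arrays, and at 300 ng/ml a few genes have arrays far apart.

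Among the 9 transcription factors and regulators, Atf3, Sesn2, Atf5 and Trib3 passed the size in some comparison. Atf3, a stress-induced repressor and activator of the CREB family, had log2 ratios of 1.96 and 1.69 at 10 ng/ml, 2.51 and 2.05 at 300 ng/ml, and -0.74 and -1.03 at 1000 ng/ml as labelled. It was at -0.92 and -1.20 in Pax5sz2. The 10 and 300 ng/ml values lay apart from those of the other pairs with no overlap, at 3.54-fold and 4.86-fold over clone 4 without doxycycline. Sesn2, which encodes sestrin 2, a leucine-sensing inhibitor of mTORC1, was at 0.89 and 1.06 at 10 ng/ml, 1.45 and 1.29 at 300 ng/ml, -0.53 and -0.44 at 1000 ng/ml, and 1.28 and 1.25 in Pax5sz2. That probe was designed from a cDNA clone. The other Sesn2 probe, designed from the RefSeq mRNA, differed, with 0.16 and -0.15 at 10 ng/ml, -1.52 and -0.08 at 300 ng/ml, and 0.03 and -0.11 in Pax5sz2.

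Atf5, a factor of the ATF4 subfamily that is translated under stress, was at -0.21 and -0.04 at 10 ng/ml, 0.13 and 0.34 at 300 ng/ml, -1.92 and -1.90 at 1000 ng/ml, and -0.46 and -0.30 in Pax5sz2. It was thus past the size at 1000 ng/ml only, at 3.75-fold lower as labelled. Trib3, a pseudokinase that restrains ATF4, was at -0.77 and -0.29 at 10 ng/ml, 0.07 and 0.77 at 300 ng/ml, -2.47 and -2.22 at 1000 ng/ml, and -0.70 and -0.09 in Pax5sz2. Its other, dimmer probe was at 0.09 and 0.18, 1.14 and 0.66, -0.96 and -1.04, and 0.03 and -0.04 in the same comparisons, so its 1000 ng/ml ratio was smaller there.

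Of the other 5 regulators none passed the size. Atf4 itself, whose protein is controlled mainly in translation, had mean ratios of -0.13 ± 0.30, 0.00 ± 0.22 and -0.36 ± 0.04 over the doses and -0.57 ± 0.23 in Pax5sz2. Ddit3, which encodes the stress factor CHOP, stayed between -0.06 and 0.27 on every dose array. Nupr1, a small stress-induced chromatin protein, was at 0.96 and 0.83 at 300 ng/ml and at -1.10 and -0.75 at 1000 ng/ml. Chac1, which degrades glutathione, was at 0.82 and 0.69 at 300 ng/ml and at -0.55 and -0.45 at 1000 ng/ml. Ddit4, which encodes REDD1, an mTORC1 inhibitor, was the 1 gene of the list above 0 on both arrays at 1000 ng/ml, at 0.38 and 0.54. Its 300 ng/ml arrays, at -2.15 and -0.02, did not match.

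All 6 serine and one-carbon enzyme genes were below 0 on both arrays at 1000 ng/ml as labelled (median -1.06), and 3 of them passed the size. Mthfd2, the mitochondrial methylenetetrahydrofolate dehydrogenase, was at 0.84 and 0.59 at 10 ng/ml, 1.61 and 1.38 at 300 ng/ml, -1.38 and -1.85 at 1000 ng/ml, and 0.08 and 0.00 in Pax5sz2. It was past the size in both directions, 2.82-fold higher at 300 ng/ml and 3.06-fold lower at 1000 ng/ml as labelled. Psat1, the aminotransferase of serine synthesis, was at 0.52 and 0.36 at 10 ng/ml, 0.88 on the 1 usable array at 300 ng/ml, -1.34 and -1.40 at 1000 ng/ml, and 1.04 and 0.91 in Pax5sz2. Psph, the phosphatase that ends the pathway, was at 0.89 and 0.44, 1.68 and 0.99, and -1.19 and -1.56 over the doses, and at 1.02 and 0.40 in Pax5sz2. Psph at 300 ng/ml and Psat1 in Pax5sz2 were past the size on 1 array and just under it on the other. A further Psph probe gave -1.22 and -1.59 at 1000 ng/ml.

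Phgdh, phosphoglycerate dehydrogenase, the entry enzyme of the pathway, was at 0.06 and 0.33 at 300 ng/ml and at -0.76 and -0.43 at 1000 ng/ml. Shmt2, the mitochondrial serine hydroxymethyltransferase, was at 0.16 and 0.49 at 300 ng/ml and at -0.41 and -1.08 at 1000 ng/ml. Mthfd1l, the mitochondrial formyltetrahydrofolate synthetase, had mean ratios of 0.34 ± 0.21, 0.04 ± 1.4 and -0.60 ± 0.33 over the doses. The cytosolic folate and proline genes listed for comparison (6 tested) had medians of 0.33 at 300 ng/ml and -0.11 at 1000 ng/ml, with 0 past the size at 1000 ng/ml. Of these, the formyltetrahydrofolate dehydrogenase gene Aldh1l1 was higher at 300 ng/ml (1.34 and 1.03), and the proline dehydrogenase gene Prodh was higher in Pax5sz2 (1.5 and 1.81).

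Cth, cystathionine gamma-lyase, which makes cysteine from homocysteine-derived cystathionine, had the ratio furthest from 0 in the list. It was at -0.07 and 0.27 at 10 ng/ml, 1.12 and 1.18 at 300 ng/ml, -4.05 and -3.54 at 1000 ng/ml, and -0.05 and 0.02 in Pax5sz2. The 1000 ng/ml RNA was 13.9-fold lower as labelled, and it was well above background on 1 of its 2 arrays. The size of both ratios changed with the background correction: with Agilent's processed signals the means were 2.32 at 300 ng/ml and -5.28 at 1000 ng/ml. Cbs, cystathionine beta-synthase, the preceding enzyme, was near background throughout (mean log2 level 6.28), and its ratios lay between -0.09 and 0.05 on all arrays.

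Among the 7 other amino acid enzymes, Asns, Gpt2 and Bcat1 passed the size. Asns, asparagine synthetase, whose upstream motif is printed above, was at 0.48 and 0.58 at 10 ng/ml, -0.01 and 1.83 at 300 ng/ml, -2.87 and -2.44 at 1000 ng/ml, and 1.59 and 1.70 in Pax5sz2. It was 6.29-fold lower at 1000 ng/ml as labelled and 3.13-fold higher in Pax5sz2, and its 300 ng/ml arrays did not match. With Agilent's processed signals these 2 arrays were at 1.07 and 1.84, which passes the size. Gpt2, the mitochondrial alanine aminotransferase, was at 0.64 and 0.72 at 10 ng/ml, 1.59 and 1.67 at 300 ng/ml, -2.35 and -2.26 at 1000 ng/ml, and 0.40 and 0.62 in Pax5sz2. The arrays of a pair were close for this gene, and the 4 pairs did not overlap.

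Bcat1, the cytosolic branched-chain aminotransferase, was at 0.57 and 0.99 at 10 ng/ml, 1.59 and 2.11 at 300 ng/ml, -1.75 and -1.63 at 1000 ng/ml, and 0.41 and 0.82 in Pax5sz2. Its second, far dimmer probe had the same signs over the doses at 0.30, 0.67 and -0.95 on average. Got1, the cytosolic aspartate aminotransferase, was at 0.81 and 0.68 at 300 ng/ml and at -0.52 and -0.69 at 1000 ng/ml. For the proline enzymes Aldh18a1 and Pycr1 the mean ratios were 0.52 ± 0.37 and 0.13 ± 0.57 at 300 ng/ml and -0.88 ± 0.46 and -0.95 ± 0.081 at 1000 ng/ml. Pycr1 was not well above background in the 1000 ng/ml RNA, which gives a bound of at least 1.78-fold lower there as labelled. Pck2, the mitochondrial phosphoenolpyruvate carboxykinase, stayed between -0.14 and 0.13 at every dose, although its promoter window holds the motif.

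Of the 7 transporter genes, all were below 0 on both arrays at 1000 ng/ml as labelled (median -1.06) and Slc6a9 and Slc1a4 passed the size. Slc6a9, the glycine transporter GLYT1, was at 0.56 and 0.28 at 10 ng/ml, -0.06 and 1.44 at 300 ng/ml, -3.16 and -2.90 at 1000 ng/ml, and 0.74 and 0.58 in Pax5sz2. Slc1a4, the neutral amino acid transporter ASCT1, was at 0.40 and 0.04, 1.02 and 0.73, and -1.22 and -1.50 over the doses, and at 0.61 and 0.57 in Pax5sz2. Its second probe gave -1.05 and -0.97 at 1000 ng/ml, so that probe passed on 1 array only.

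Slc7a5, the LAT1 transporter of large neutral amino acids, was at -0.95 and -1.24 at 1000 ng/ml, just outside the size. Slc7a3, a cationic amino acid transporter, was not well above background in the 1000 ng/ml RNA, at least 1.77-fold lower as labelled. Slc3a2, the shared heavy chain of LAT1 and xCT, was at 0.51 and 0.40 at 300 ng/ml and -0.48 and -0.37 at 1000 ng/ml. A further, dimmer Slc3a2 probe was at -1.23 and 0.00 at 300 ng/ml and -0.37 and -0.23 at 1000 ng/ml. Slc7a1, the main cationic amino acid transporter, was at -0.58 and -0.60 at 1000 ng/ml, and its further, dimmer probe was at 0.11 and -0.09. Slc7a11, the cystine transporter xCT, was near background, with ratios between -0.33 and 0.01. Stc2, a secreted stress-induced glycoprotein, was at 0.72 and 0.64 at 300 ng/ml and -0.70 and -0.67 at 1000 ng/ml.

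The 12 tRNA synthetases, which load amino acids onto tRNA, were all below 0 on both arrays at 1000 ng/ml as labelled. Their mean ratios ran from -1.04 (Gars) to -0.42 (Wars) with a median of -0.80, whereas those of the other 32 tested genes ran from -3.80 to 0.46. At 1.5-fold on both arrays 6 of the 12 were lower at that dose, next to 2.05% of all features: Aars, Cars, Gars, Iars, Nars and Sars. At 300 ng/ml the median was 0.39, 7 were above 0 on both arrays and 0 below, and Lars alone was higher at 1.5-fold, at 0.75 and 0.64, next to 4.99% of all features. At 10 ng/ml the median was 0.18 and in Pax5sz2 0.12.

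Cars, the cysteinyl enzyme, was at 0.92 and 0.52 at 300 ng/ml and -0.81 and -1.20 at 1000 ng/ml. Aars, the alanyl enzyme, was at 0.43 and 0.71 at 300 ng/ml and -0.89 and -0.67 at 1000 ng/ml. Its further detected probes were dimmer and did not match each other, at 0.97 and 0.92, and at -0.95 and -0.55, at 300 ng/ml. At 1000 ng/ml these probes were at 0.01 and -0.86, and at -0.06 and 0.24. Gars, the glycyl enzyme, was at -1.13 and 0.66 at 300 ng/ml and -0.77 and -1.31 at 1000 ng/ml, and Nars, the asparaginyl enzyme, at -1.93 and 0.16, and -0.87 and -0.85. The 2 arrays of the 300 ng/ml pair thus gave opposite signs for both genes. With Agilent's processed signals Gars was at 0.49 and 0.54 there, and Nars at -0.53 and 0.06. Sars, the seryl enzyme, and Wars, the tryptophanyl enzyme, had 300 ng/ml means of -0.01 ± 0.38 and -0.08 ± 0.24. A further, dimmer Wars probe was at 0.44 and 0.42 at 300 ng/ml. By their brightest probes, Eprs, Mars and Yars lay between 0.33 and 0.58 on both 300 ng/ml arrays and between -1.09 and -0.46 at 1000 ng/ml. Further Eprs probes were at 0.16 and 0.55, -0.24 and -0.27, and -0.14 and -0.31 at 300 ng/ml, so their signs differed. A further Mars probe was at -0.62 and 0.96 there. In Pax5sz2, Lars, the leucyl enzyme, was the highest by its brightest probe at 0.56 and 0.59, and Yars, the tyrosyl enzyme, the lowest at -0.48 and -0.31. The other 2 detected Lars probes did not match it there, at 0.10 and 0.23, and at -1.48 and -1.51.

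Other synthetases had medians closer to 0 at 1000 ng/ml. The 8 other cytosolic synthetases had a median of -0.12 there, with 4 below 0 and 1 above 0 on both arrays, from -0.68 for Dars, the aspartyl enzyme, with 1 usable array, to 0.41 for Qars, the glutaminyl enzyme. The 17 mitochondrial synthetases had a median of -0.06, with 7 below 0 and 2 above 0 on both arrays. At 300 ng/ml these lists had medians of 0.20 and 0.27, next to 0.39 for the 12 listed synthetases. The difference between the lists was not tested, and ranges overlapped at every dose. Among mitochondrial enzymes, Lars2 was at 2.60 and 1.83 at 10 ng/ml and 2.39 and 2.15 at 300 ng/ml. Its 1000 ng/ml arrays, at 2.33 and -0.10, did not match. Wars2 was at -1.57 and -1.44 at 10 ng/ml, -1.60 and -1.63 at 300 ng/ml, 0.31 and 0.28 at 1000 ng/ml as labelled, and -1.60 and -1.39 in Pax5sz2.

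**Figure D3:**
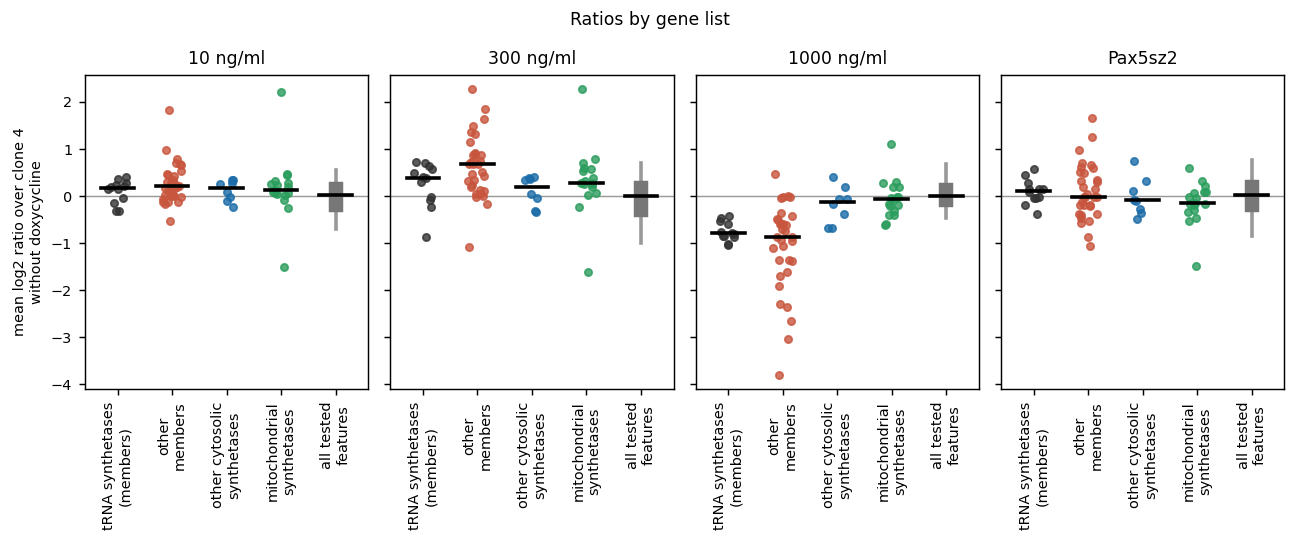
Mean log2 ratio over clone 4 without doxycycline in each comparison for the 12 listed tRNA synthetases, the other genes of the list, 8 other cytosolic and 17 mitochondrial synthetases (points, 1 per gene, bars at medians), and all tested features (median, quartiles and percentiles 5 to 95). At 1000 ng/ml as labelled the listed synthetases have a median of -0.80 and the other cytosolic and mitochondrial ones -0.12 and -0.06.

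Genes upstream of ATF4 had medians close to 0. The 7 genes of eIF2 alpha, its kinases and phosphatase subunits had medians of 0.07, -0.01 and -0.10 over the doses and 0.06 in Pax5sz2, with 0 past the size. Of 9 tested further genes of the ATF4 pathway, the stress regulator Cebpb was higher at 10 ng/ml (1.42 and 1.48) and Cebpg, which pairs with ATF4, was higher in Pax5sz2 (1.07 and 1.28). Eif4ebp1, a translation inhibitor, was lower at 1000 ng/ml as labelled (-1.78 and -1.48). The 3 scaffold genes of the synthetase complex had medians of 0.33, 0.48 and -0.33 over the doses, and Eef1e1 was their highest at 300 ng/ml, at 1.04 and 0.69.

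The ratios of genes with and without the promoter motif overlapped. The 15 tested genes with it had medians of 0.19, 0.57 and -0.85 over the doses and 0.09 in Pax5sz2, and the 22 without it 0.21, 0.43, -0.64 and -0.02. Past the size at 1000 ng/ml were 3 of the 15 and 7 of the 22. Cth and the serine pathway genes Psat1, Psph and Mthfd2, among those with the clearest ratios, have no such letters in their windows or, for Cth, no window in the table.

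The channel levels give each RNA on its own. Levels are log2 intensities set to a common distribution across arrays. For Cth, the 1000 ng/ml RNA was at 7.58 and its control at 11.38, whereas the controls of the other 3 pairs were at 6.39 to 6.48. For Asns the 1000 ng/ml RNA was at 12.77 and its control at 15.43, with the other controls at 12.37 to 12.49. For Slc6a9 these levels were 8.81 and 11.84, with the other controls at 7.97 to 8.36, and for Gpt2 8.18 and 10.48, with the others at 7.47 to 7.53. Trib3 was at 10.45 in the 1000 ng/ml RNA and 12.80 in its control, next to 10.56 to 10.76 in the others.

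Over the 44 genes, the labelled control of the 1000 ng/ml pair was above all 3 other controls for 40 genes (90.9%), against 32.9% of all features. It was at least 2-fold above them for 14 genes (31.8%), against 1.24% of all features. The RNA labelled 1000 ng/ml was 2-fold above those controls for 1 gene, Cth (0.03% of all features), and 2-fold below them for 0 (1.2%). The labelled control was 2-fold below them for 0 genes, against 3.81% of all features. Among the synthetases, Cars and Iars had a control 2-fold above, at 12.66 and 14.65 next to at most 11.31 and 13.52. All 4 control RNAs carry the same label. Taken as labelled, the controls of this list differed between the earlier and the later arrays, and batch and culture cannot be told apart. With the labels of the pair turned, the high RNA would be the 1000 ng/ml one and not a control. Outside the list, the myeloid markers Mpo, Ctsg, Fcgr3 and Tyrobp were at 8.27, 14.54, 12.41 and 12.48 in the RNA labelled 1000 ng/ml. Its labelled control was at 7.08, 9.41, 8.64 and 8.43. The other 3 controls were at 8.02 to 8.28, 14.58 to 14.74, 12.07 to 12.27 and 12.01 to 12.39. Which RNA of the pair is the control was not tested.

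**Figure D4:**
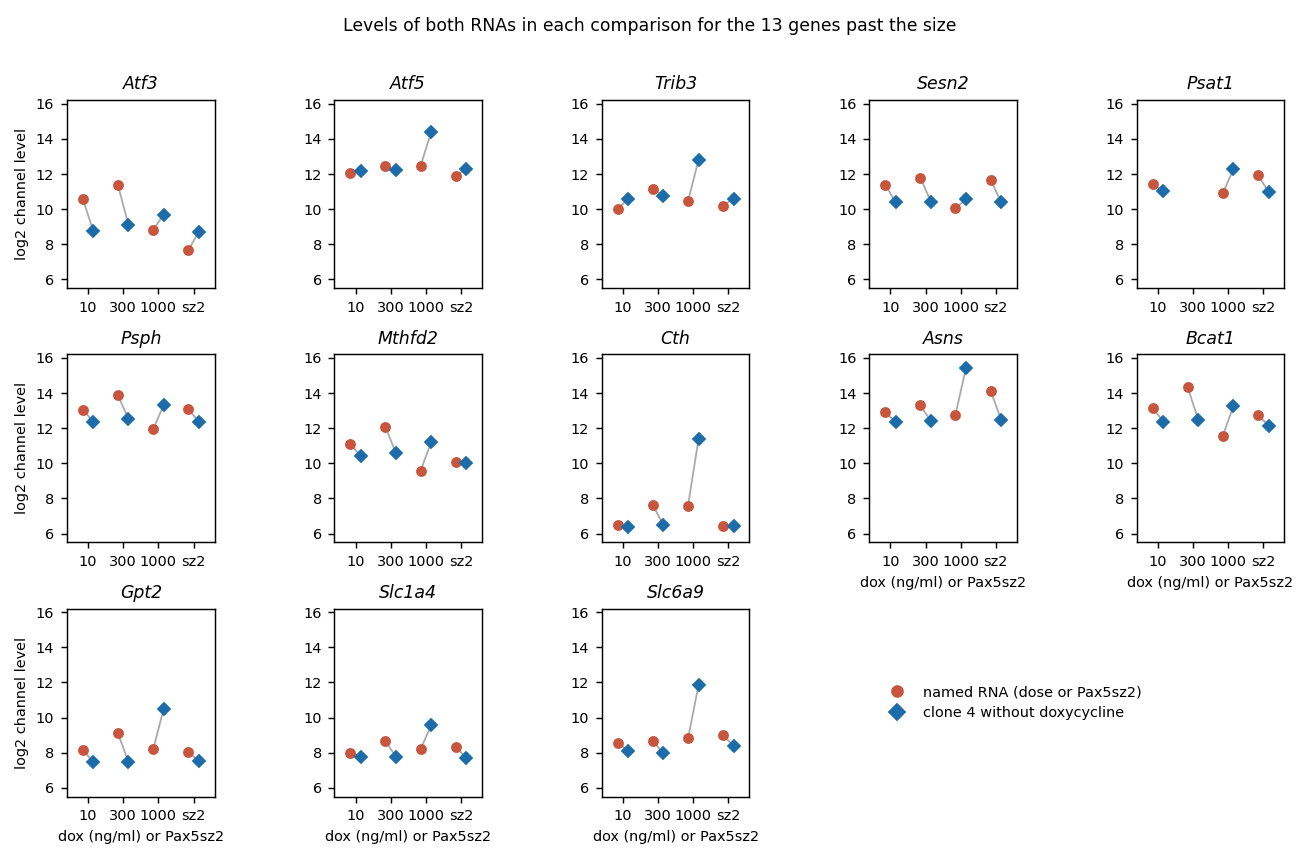
Log2 channel level of the 13 genes past the size in each comparison, for the named RNA (circles, at 10, 300 or 1000 ng/ml doxycycline or Pax5sz2) and clone 4 without doxycycline (diamonds), each the mean of 2 arrays. For Asns, Cth, Gpt2 and Slc6a9 the labelled control of the 1000 ng/ml pair lies above the other 3 controls, which lie close together. Psat1 has no pair of levels at 300 ng/ml.

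The only test over more than 1 RNA was of a mean doxycycline effect across doses, fitted with limma to all features and adjusted by Benjamini-Hochberg at 0.05. With the 3 doses as labelled, 0 genes of the list passed (0% of all features). By limma's unadjusted p under 0.05, 1 gene, Nars, did (effect -0.68), as did 5.92% of features. With the sign of the 1000 ng/ml pair turned, limma again passed 0 genes and 0 features (smallest adjusted p 0.12), but 22 of 44 genes had an unadjusted p under 0.05, next to 24.6% of features. Within the later arrays, at 10 and 300 ng/ml only, limma passed 2 genes, next to 14.5% of all features: Atf3 rose by log2 2.05 ± 0.15 (SE, adjusted p = 0.0372) and Sesn2 by 1.17 (adjusted p = 0.0405). Both were above 0 on all 4 of those arrays, and Sesn2's other probe was not. That fit has 2 RNAs, so its spread is borrowed from all features, and it leaves out the spread of the control RNA.

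The cell type markers did not stay constant across these comparisons. In clone 4 without doxycycline, 10 of 12 B cell precursor markers were well above background in the 10 and 300 ng/ml pairs. The exceptions were the surrogate light chain genes Vpreb1 and Igll1, which were at log2 ratios of 7.88 and 5.65 in Pax5sz2. Dntt and Ebf1 were at least 2-fold lower on both Pax5sz2 arrays, at -4.89 and -1.58 on average. The 12 markers had medians of -0.30, -0.60 and 0.01 over the doses and -0.20 in Pax5sz2. The 14 stromal markers, those of the OP9 feeder cells, had medians of 0.77, 1.09 and -0.12 over the doses and 0.45 in Pax5sz2. The log2 of their mean unlogged level, in which the brightest markers weigh most, was 11.53 in the 10 ng/ml RNA against 10.51 in its control. It was 11.74 against 10.32 at 300 ng/ml, 10.61 against 10.67 at 1000 ng/ml, and 11.44 against 10.62 in Pax5sz2. Of these markers 3, 7 and 0 were at least 2-fold higher over the doses and 3 in Pax5sz2. In the RNA of each dose 12 of the 14 were well above background, all but Lum and Dcn, and in the Pax5sz2 RNA all 14 were. The 11 myeloid markers had medians of -0.12, -0.57 and 0.65 over the doses, with a wide range. At 300 ng/ml they ran from -3.39 (Tyrobp) to 0.31 (Cebpa), and Mpo, Ctsg, Fcgr3 and Tyrobp were at least 2-fold lower on both arrays. At 1000 ng/ml as labelled they ran from -0.11 (Cd14) to 5.14 (Ctsg), and the same 4 were at least 2-fold higher. The 8 proliferation genes had medians of 0.33, 0.39 and -0.67 over the doses and 0.03 in Pax5sz2. At 10 and at 300 ng/ml, 5 were above 0 and 3 below 0 on both arrays. At 1000 ng/ml as labelled, 8 of 8 were below 0 on both arrays. The part of feeder cells, lineage and proliferation in the ratios of the list was not tested, and in such bulk RNA fewer cells of a type and less RNA per cell cannot be told apart.

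Probes other than the brightest gave a partial check. The list had 25 further detected probes, for 18 genes. At 1000 ng/ml as labelled 18 of the 25 were below 0 on both arrays and 1 above, with a median of -0.42. At 300 ng/ml 16 were above and 6 below, with a median of 0.36. The sign of the mean matched that of the brightest probe for 16, 17 and 20 of the 25 over the doses and for 16 in Pax5sz2.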

How the data were processed

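Expression was measured in 4 mouse RNAs, each against clone 4 without doxycycline, on 8 Agilent 2-colour arrays of 43790 spots. Per the file headers, the authors' scanner output gives a mean spot intensity and a median local background intensity for either channel. Also per the file headers, they hold processed intensity values, background-subtracted and dye-normalized by Feature Extraction 10.5.1.1, and a log10 ratio of Cy5 over Cy3. The deposited series matrix holds the same log10 ratios, turned in sign on arrays that have the named RNA in Cy3, within 5e-06, and each column has a median of 0. No version is in the submitters' processing notes, which name Agilent Feature Extraction.

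From these, R 4.3.3 with limma 3.58.1 and data.table (version 1.17.8) made log2 ratios from the deposited intensity values: normexp with an offset of 50, then loess within each array, with control and outlier spots (37 to 295 outliers per array) at weight 0. No spot was saturated. Spots well above background made up 40.4% to 45.1% per channel on arrays of the 1000 ng/ml pair (multiplier 2.6) and 59.5% to 75.5% elsewhere (multiplier 13), so dim calls are not at 1 threshold. Channel levels were set to a common mean distribution (Aquantile). Spots of a probe were averaged (41174 probes), and probes were named through the files or by accession through RefSeq (33024 named). The number of arrays limits the precision.

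Ratios are the named RNA over clone 4 without doxycycline. Single comparisons use a size rule with no test. The limma test (two-sided, eBayes, Benjamini-Hochberg under 0.05) averaged the 2 arrays of a dose first, and was checked on simulated data. A bound sets the bright RNA against the detection level of the dim one. Every gene past the size is given with both arrays, the rest by value or range. The genes and lists were chosen with earlier results of these data known. Promoter windows came from RefSeq, and figures were drawn in matplotlib 3.10.9 (Python 3.11.15). Alternatives were Agilent's processed signals, the series matrix, median centring, the mean over detected probes, no filter, each array alone and a 1.5-fold size.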

Additional observations from a re-analysis of the deposited data

Results flagged for a closer look

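5 genes were past the size in opposite directions in different comparisons. Mthfd2 had a mean log2 ratio of 1.5 at 300 ng/ml and -1.61 at 1000 ng/ml as labelled. For Cth these were 1.15 and -3.80, for Bcat1 1.85 and -1.69, and for Gpt2 1.63 and -2.30. Asns was at 1.65 in Pax5sz2 and at -2.65 at 1000 ng/ml as labelled. The difference between comparisons was not tested, since each is 1 RNA. It rests on the direction of the 1000 ng/ml pair, which was not settled, and with the sign turned all 5 would be on 1 side.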

How the results depend on the processing

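With Agilent's processed signals, as with the series-matrix log ratios, 10 genes of the list were higher at 300 ng/ml and 1 was lower in Pax5sz2. Medians of the list at 10 and 1000 ng/ml were 0.28 and -0.85, and 0.084 in Pax5sz2. Features past the size over the doses numbered 1051, 1856 (1850 with the series matrix) and 919, and 2160 in Pax5sz2, whereas loess gave 375, 734, 514 and 1032. With median centring these were 148, 478, 192 and 682, 6 genes of the list were lower at 1000 ng/ml, and medians were 0.46, -0.92 and 0.38. With the mean over detected probes, medians at 300 and 1000 ng/ml were 0.34 and -0.77, and that of Pax5sz2, where 1 gene was higher, was -0.015. With no filter the 1000 ng/ml median was -0.81. At 1.5-fold, 4 genes were higher at 10 ng/ml, 15 higher at 300 ng/ml, 23 lower at 1000 ng/ml and 2 lower in Pax5sz2, and features numbered 1667, 2506, 1366 and 2790.

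With either array left out, higher genes numbered 1 to 2 at 10 ng/ml and 2 to 4 in Pax5sz2. Lower genes numbered 0 to 3 at 300 ng/ml, 15 to 19 at 1000 ng/ml and 0 to 1 in Pax5sz2. Medians were -0.79 to -0.77 at 1000 ng/ml and -0.013 to 0.047 in Pax5sz2, and features 555 to 689 at 10 ng/ml and 1092 to 2263 at 300 ng/ml. Without the 1000 ng/ml pair, limma passed 2 genes and 2903 features. With arrays as samples it passed 0 genes and 82 features, and under the other alternatives 0, including 4 chosen after seeing the data that left out the 10 or the 300 ng/ml pair, with the 1000 ng/ml sign as labelled or turned. Of 154 values for counts, medians and tests, 102 moved by less than the spread between arrays or, for counts, by less than 1.5 times, and no call turned its direction. The Pax5sz2 median, close to 0, did change sign, to -0.015 with the mean over detected probes and to -0.013 without 1 of its arrays. Ratios of single genes past the size did not reverse under these alternatives either, and Sesn2 at 300 ng/ml was at 0.28 when averaged over its probes. The cause of these differences was not tested. Each ratio already pairs the 2 RNAs of an array. No further pairing was possible, since a comparison rests on 1 RNA on 2 technical arrays.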
